A study of Ovis aries with 3 samples.

Results

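The HOX cluster genes are the homeobox genes of the HOXA, HOXB, HOXC and HOXD clusters, and they were described here across 3 single-cell libraries of sheep embryos. A gene was taken as a member when its symbol was HOXA, HOXB, HOXC or HOXD in capitals followed by a number only. This gave 36 members among 26478 genes listed, of which 16670 had a symbol: 10 HOXA, 10 HOXB, 8 HOXC and 8 HOXD genes. 2 further genes were spelled in another letter case, *Hoxc8* and *hoxd11*, and are given apart, and *HOXA10* was not analysed here. Levels are unique molecular identifiers (UMIs, each standing for 1 captured RNA molecule) summed over cells and given as counts per 1000000 UMIs of those cells (CPM).

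HOX genes encode transcription factors that give cells their position along the head-to-tail axis. Within a cluster the genes lie in the order in which they are used. Genes with low paralogue numbers are switched on first and act furthest forward, and genes with high numbers are switched on last and act in the trunk end, tail, limbs and urogenital tract. Members with the same number in different clusters are paralogues, copies that descend from 1 ancestral gene, and they often share tasks.

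The study compared Hulunbuir short-tailed sheep (HSTS), which were homozygous for a missense mutation in the DNA-binding domain of the *T* gene in the animals the study genotyped, with Hu sheep (HS), which carried the wild-type allele. *T* (Brachyury) is a transcription factor of the mesoderm, notochord and tail bud. The libraries were E19 HSTS and E19 HS, each from 1 embryo at day 19, and E16 HS at day 16. The E16 HS label names 1 embryo whereas the study's methods name 3 embryos, so whether that library was pooled was not settled, and E16 HSTS embryos were not analysed here. Embryos were dissociated whole with collagenase, red blood cells were lysed, and RNA was counted with a 3′ droplet assay, which reads the end of a transcript and so does not read the *T* mutation. Breed and the *T* allele go together in these embryos and cannot be told apart, and each group was 1 library, so no test between groups was possible and no p-values are given. Intervals are exact 95% intervals and cover counting error only.

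A cell was kept if it held between 200 and 6000 genes, between 1000 and 30000 UMIs, and no more than 10% of UMIs from mitochondrial genes. Kept cells numbered 11329 in E16 HS, 10629 in E19 HS and 9618 in E19 HSTS, with a median of 6900 to 9046 UMIs per cell and 88733467 to 113213654 UMIs per library. Erythroid-like cells, those with at least 3 of 9 red cell markers (8 of them listed), made up 18.2% of the kept cells in E16 HS, 13.3% in E19 HS and 27.6% in E19 HSTS, and held 25.7%, 28.9% and 46.2% of the UMIs. These cells carried few HOX molecules, 34.4, 17.2 and 24.9 CPM, yet their UMIs count in the total of each library. Between-library ratios are therefore given with and without them. Pairs of libraries shared 31 to 37 kept cell barcodes.

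Summed over the 36 members, the HOX level was 311 CPM (interval 308 to 314) in E16 HS, 284 CPM (280 to 287) in E19 HS and 299 CPM (296 to 302) in E19 HSTS. The 3 libraries lay within a narrow range. Without erythroid-like cells the sums were 407, 392 and 534 CPM, and E19 HSTS then stood above the other 2. E19 HSTS stood at 1.05 times E19 HS (1.04 to 1.07) over all kept cells and 1.36 (1.34 to 1.39) without erythroid-like cells. The ratio of E16 HS to E19 HS was 1.10 (1.08 to 1.11) and 1.04 (1.02 to 1.05), and it was 0.949 and 0.967 when libraries were scaled with TMM and RLE factors in place of total UMIs, so the stages had no stable order. In a whole embryo, more cells of a type and more RNA per cell cannot be told apart.

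The members differed widely in level. *HOXA7*, which acts in the trunk, was at 35.9 CPM in E16 HS, 44.7 CPM in E19 HS and 40.4 CPM in E19 HSTS. *HOXB9*, a gene of the thoracic to lumbar trunk, was at 35.3, 40.0 and 45.3 CPM. *HOXC9*, its HOXC paralogue, was at 35.8, 29.9 and 29.4 CPM. These were the 3 highest members in all 3 libraries, followed in each by *HOXA5*, a gene with roles in the lung and the lower neck (24.9, 24.1 and 28.0 CPM), and *HOXA6* (20.4, 19.5 and 26.4 CPM). At the other end, *HOXB13* had 0, 1 and 0 UMIs, *HOXC13*, a gene of hair and nails, had 5, 6 and 2 UMIs, and *HOXD12* had 9, 5 and 5 UMIs. These 3 were below the minimum of 20 UMIs summed over both libraries in either comparison, so 33 members were compared gene by gene. Levels of different genes rest on 3′ UMI counts that are not divided by length and depend on how well the 3′ end of each gene is annotated, and in the RefSeq annotation of another sheep assembly, which matched 35 of the members, the gene models of 9 pairs overlapped. The order of the genes is therefore a description of counts. The plot of levels by paralogue number places the members side by side.

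**Figure D1:**
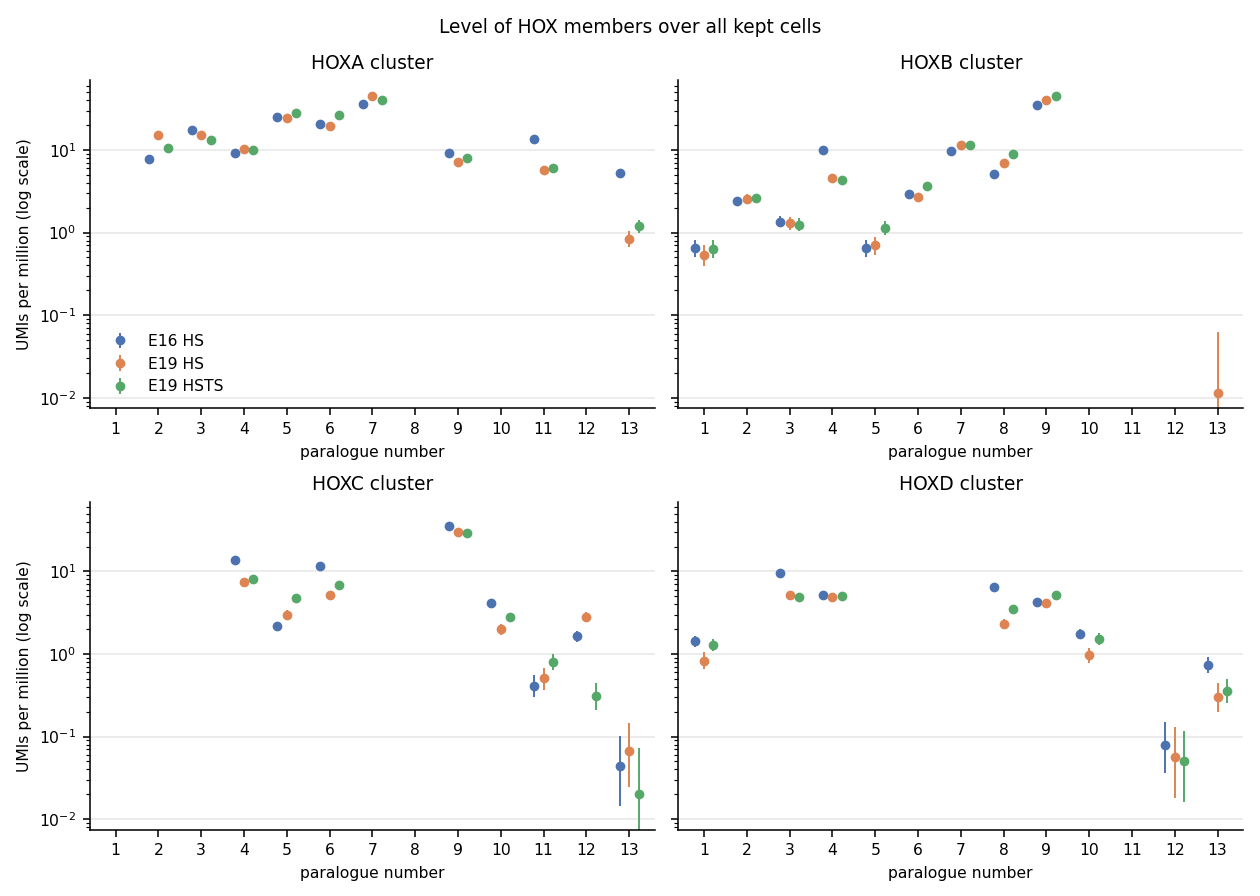
Level of HOX members in CPM (log scale) against paralogue number, 1 panel for each cluster, with 1 point per library and exact 95% counting intervals. *HOXA7*, *HOXB9* and *HOXC9* are the highest in each library, *HOXC12* is lowest in E19 HSTS at 0.311 CPM, and *HOXA13* is highest in E16 HS at 5.32 CPM. Points at 0 UMIs cannot be drawn on the log axis.

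By paralogue number, the summed level was highest at 9 (84.5 CPM in E16 HS, 81.1 in E19 HS, 87.9 in E19 HSTS) and next at 7 (45.7, 56.3 and 52.0 CPM). Paralogues 10 and above were lower. Number 11, which patterns the sacral region, the middle limb segment and the kidney, was at 13.9, 6.27 and 6.82 CPM. Number 13, the last to be used, with roles in digits, the urogenital outlet and the end of the axis, was at 6.1, 1.23 and 1.58 CPM. Both were highest in E16 HS. Number 12 was the exception in the other direction, at 1.71 CPM in E16 HS, 2.90 CPM in E19 HS and 0.362 CPM in E19 HSTS. Members 4 to 8 (14 genes) gave 50.7%, 52.1% and 54.5% of HOX UMIs, members 9 to 13 (14 genes) gave 36.0%, 33.3% and 33.8%, and members 1 to 3 (8 genes) gave 13.2%, 14.6% and 11.8%. The HOXA cluster held the largest share, 46.3%, 50.5% and 48.3%, and the HOXD cluster the smallest, 9.44%, 6.58% and 7.33%.

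The comparison of E19 HSTS with E19 HS asks which members differ between the 2 breeds at the same day. Of the 33 members compared, 0 were at least 2-fold higher in E19 HSTS and 1, *HOXC12*, was at least 2-fold lower; among 13984 genes compared, 2.4% were higher and 3.3% lower by that much. The median ratio over the members was 1.16 and over all genes 0.963. Without erythroid-like cells 4 members were at least 2-fold higher and 1 was lower, against 3.6% and 1.84% of 13721 genes, with medians of 1.49 and 1.16.

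*HOXC12*, one of the posterior HOXC genes, had 185 UMIs in 134 cells of E16 HS, 252 UMIs in 82 cells of E19 HS and 31 UMIs in 21 cells of E19 HSTS. Its level was 1.63, 2.84 and 0.311 CPM. E19 HSTS was thus the low library and E19 HS the high one, with a ratio of 0.110 (0.0729 to 0.160), which is 9.12-fold lower, and 0.121 (0.0765 to 0.182) without erythroid-like cells. At most 8 of its UMIs came from any 1 cell. Its nearest measured neighbours by paralogue number in the same cluster went the other way or were too low to compare. *HOXC11* was at 0.507 CPM in E19 HS and 0.803 CPM in E19 HSTS, a ratio of 1.58 (1.09 to 2.34), and *HOXC10*, whose paralogue group suppresses ribs in the lumbar region, was at 2.01 and 2.79 CPM, a ratio of 1.39 (1.15 to 1.69). *HOXC13* had 6 and 2 UMIs.

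The 4 members that passed 2-fold without erythroid-like cells were *HOXB5*, *HOXC5*, *HOXC11* and *HOXD10*. Over all kept cells none of them passed. *HOXB5*, a gene of the lower hindbrain, neck and foregut, was at 0.699 CPM in E19 HS and 1.13 CPM in E19 HSTS, a ratio of 1.62 (1.18 to 2.25), and of 2.16 (1.56 to 3.01) without erythroid-like cells. *HOXC5* was at 3.00 and 4.75 CPM, with ratios of 1.58 (1.36 to 1.85) and 2.08 (1.78 to 2.43). *HOXD10*, which acts in the lumbar spinal cord and the limb, was at 0.969 and 1.54 CPM, with ratios of 1.59 (1.21 to 2.09) and 2.13 (1.62 to 2.82). All 3 are genes of low level, and the intervals of their ratios reached below 2 in both settings.

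The anterior members stood apart from the rest in this comparison. Summed over members 1 to 3, E19 HSTS was at 0.849 times E19 HS (0.810 to 0.889), against 1.10 (1.08 to 1.13) for members 4 to 8 and 1.07 (1.04 to 1.10) for members 9 to 13. Without erythroid-like cells the 3 ratios were 1.10, 1.42 and 1.38, in the same order. *HOXA2*, which patterns the second pharyngeal arch and the hindbrain, was the anterior gene with the lowest ratio, with 7.70 CPM in E16 HS, 15.2 CPM in E19 HS and 10.5 CPM in E19 HSTS. Its breed ratio, E19 HSTS over E19 HS, was 0.689 (0.635 to 0.748), and 0.898 (0.826 to 0.975) without erythroid-like cells. *HOXA3* (0.870), *HOXA7* (0.904) and *HOXB4* (0.932) were also below 1 over all kept cells, and each of these was above 1 without erythroid-like cells. By cluster the ratios were 1.01 for HOXA, 1.12 for HOXB, 1.04 for HOXC and 1.17 for HOXD over all kept cells. They were 1.31, 1.45, 1.35 and 1.51 without erythroid-like cells.

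The comparison of E16 HS with E19 HS asks which members differ between the 2 days within one breed. At E16 7 of 33 members were at least 2-fold higher and 0 were at least 2-fold lower, against 8.06% higher and 7.89% lower among 14127 genes. The median ratio was 1.08 over the members and 1.16 over all genes. Without erythroid-like cells 5 were higher and 1 lower, against 6.33% and 9.38% of genes, and under TMM scaling 4 were higher and 2 lower. 4 of the 7 belong to paralogue numbers 10 and above: *HOXA11*, *HOXA13*, *HOXC10* and *HOXD13*. The other 3 are *HOXB4*, *HOXC6* and *HOXD8*.

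*HOXA13*, a gene of the digits, hindgut end and urogenital outlet, was at 5.32 CPM in E16 HS, 0.845 CPM in E19 HS and 1.20 CPM in E19 HSTS. The E16 library was the high one and the 2 E19 libraries lay close to each other, with a ratio of E16 HS to E19 HS of 6.29 (4.94 to 8.11). *HOXA11*, which patterns the middle limb segment, kidney and uterus, was at 13.5, 5.76 and 6.02 CPM, a ratio of 2.34 (2.11 to 2.59). *HOXD13*, the HOXD partner of *HOXA13* in the digits, was at 0.742, 0.304 and 0.362 CPM, a ratio of 2.44 (1.56 to 3.91). *HOXC10* was at 4.12, 2.01 and 2.79 CPM, a ratio of 2.06 (1.73 to 2.46), which was 1.95 without erythroid-like cells. *HOXC12* did not follow these 4 genes and had a ratio of 0.575 (0.473 to 0.698).

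Among the anterior and central members, *HOXD8* was at 6.39 CPM in E16 HS, 2.32 CPM in E19 HS and 3.52 CPM in E19 HSTS, a ratio of E16 HS to E19 HS of 2.75 (2.36 to 3.23). *HOXC6*, a gene of the upper trunk, was at 11.8, 5.14 and 6.91 CPM, a ratio of 2.29 (2.06 to 2.55). *HOXB4*, a gene of the hindbrain and upper neck, was at 9.88, 4.64 and 4.33 CPM, a ratio of 2.13 (1.90 to 2.39), and 1.98 without erythroid-like cells. In each of the 3 the E16 library was the high one. *HOXA2* went the other way, with 0.507 (0.465 to 0.553), and 0.485 (0.445 to 0.529) without erythroid-like cells. The HOXA cluster as a whole had a ratio of 1.01 and the HOXB cluster 0.960, while HOXC had 1.37 and HOXD 1.57. Without erythroid-like cells these were 0.951, 0.907, 1.30 and 1.49. The plot of ratios by gene shows both comparisons.

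**Figure D2:**
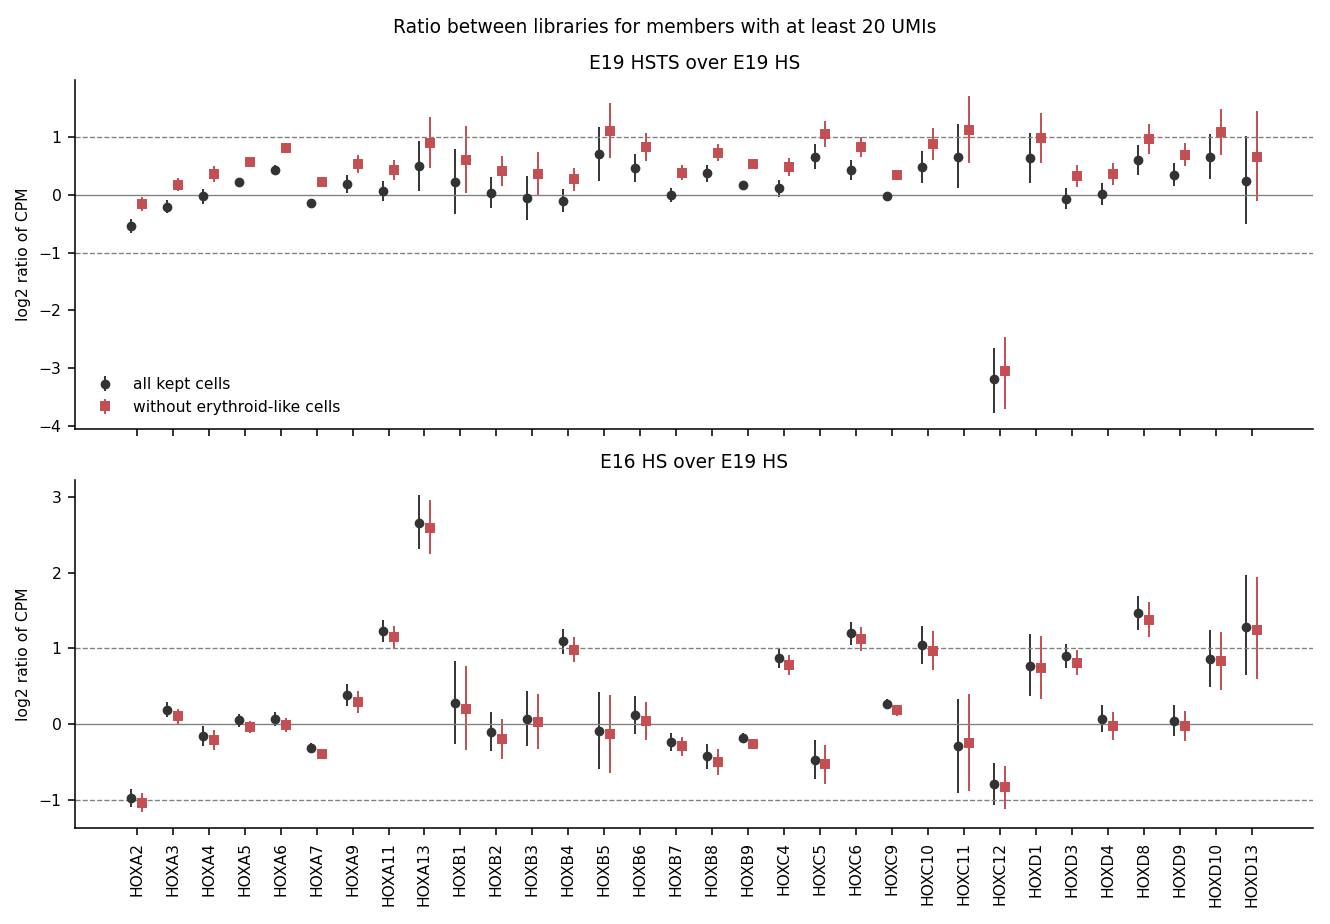
Log2 ratio of CPM for members with at least 20 UMIs, E19 HSTS over E19 HS in the upper panel and E16 HS over E19 HS in the lower, over all kept cells (circles) and without erythroid-like cells (squares), with exact 95% counting intervals and dashed lines at 2-fold. *HOXC12* lies far below the other members in the upper panel, and *HOXA13* lies highest in the lower one.

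Cells were then taken by a marker, at least 1 UMI of *SOX2* (neural progenitors), *MEOX1* (somites), *CDX2* (tail end of the embryo and gut), *DCN* (fibroblast-like mesenchyme) or *CDH16* (nephric duct and other epithelia). A cell could be in several of these sets. *SOX2* cells numbered 1621 in E16 HS, 2999 in E19 HS and 2140 in E19 HSTS. *MEOX1* cells numbered 677, 547 and 775, *CDX2* cells 1213, 161 and 176, *DCN* cells 2842, 952 and 800, and *CDH16* cells 18, 184 and 217. The stages thus differed most in the *CDX2*, *DCN* and *CDH16* sets, and the E16 *CDH16* set was too small for gene-level statements. Companion genes of each type were at least 2-fold higher in the set than in other cells for 4, 6 and 6 of 6 neural genes in *SOX2* cells, 6, 5 and 6 of 6 somitic genes in *MEOX1* cells, 4, 6 and 6 of 6 fibroblast genes in *DCN* cells and 3, 4 and 5 of 6 nephric genes in *CDH16* cells. For *CDX2* cells all 7 caudal genes passed in E16 HS and in E19 HS but 2 of 7 in E19 HSTS. Of 6 gut genes, 2 passed in E16 HS, 3 in E19 HS and 5 in E19 HSTS. The label of a tail-end set was thus carried by the HS libraries. Companion genes had no minimum of UMIs, so some ratios rested on very few. In *CDX2* cells of E19 HS the intervals for *TBX6* (0.528 to 598) and *HES7* (0.263 to 111) included 1. In E19 HSTS those of both passing caudal genes did, *CYP26A1* (0.358 to 11.9) and *T* (0.234 to 98.9). Those of the gut genes *FOXA2* and *CDH1* did too.

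The HOX level differed between the sets by more than between the libraries. In *CDX2* cells it was 882 CPM in E16 HS, 792 CPM in E19 HS and 720 CPM in E19 HSTS. In *MEOX1* cells it was 513, 495 and 600 CPM, and in *SOX2* cells 529, 402 and 555 CPM. *CDX2* cells had the highest sum in every library. In *CDH16* cells the sum was 216, 360 and 398 CPM and in *DCN* cells 237, 224 and 280 CPM, so *DCN* cells were lowest in both E19 libraries. *SOX2* cells that also held 1 of 5 rostral brain or eye genes, where HOX genes are not used, had 244 CPM in 42 cells of E16 HS, 45.5 CPM in 147 cells of E19 HS and 22.4 CPM in 69 cells of E19 HSTS. In E19 HSTS this was near the 24.9 CPM of erythroid-like cells, in E19 HS it was above their 17.2 CPM (intervals 35.7 to 57.1 and 15.6 to 18.9), and the 42 E16 cells did not lack HOX RNA.

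**Figure D3:**
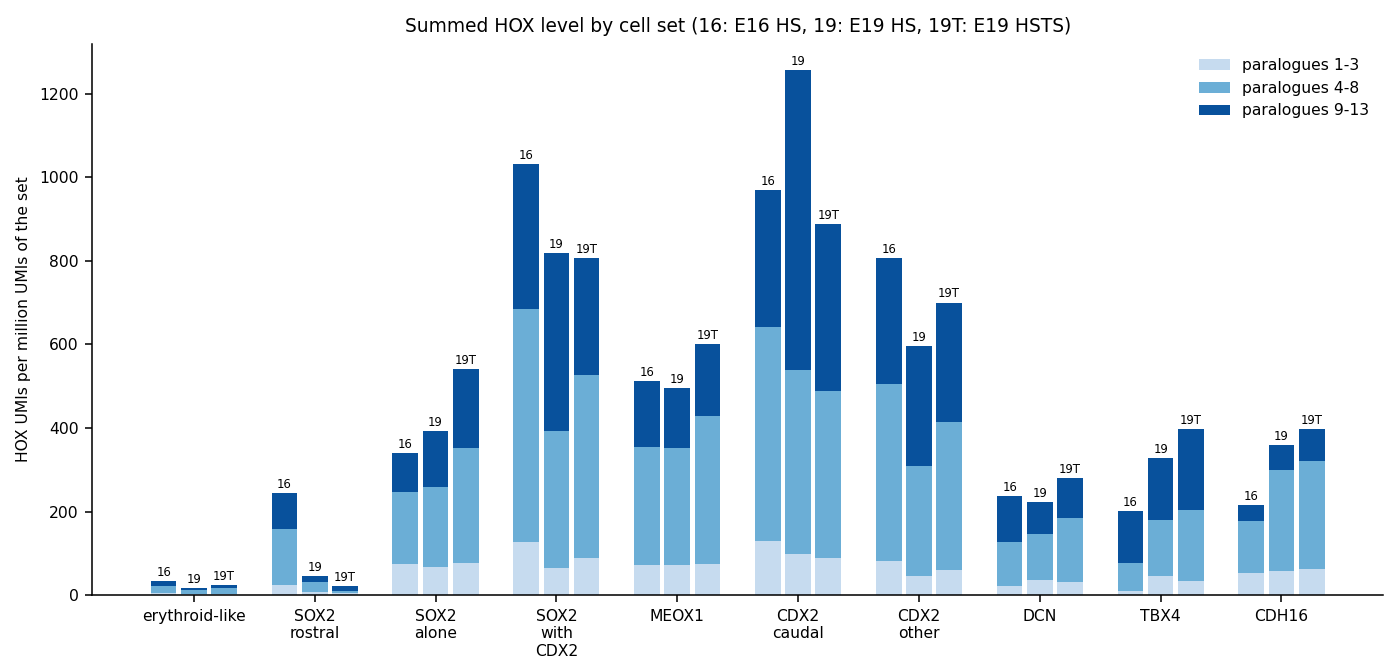
Summed HOX level of each cell set in CPM, stacked by paralogue numbers 1 to 3, 4 to 8 and 9 to 13, with a bar for E16 HS (16), E19 HS (19) and E19 HSTS (19T). Bars are tallest in the *CDX2* sets, reaching 1257 CPM in caudal *CDX2* cells of E19 HS, and shortest in erythroid-like cells, at 17.2 to 34.4 CPM.

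*CDX2* cells held more HOX RNA than other cells in each library, though not for every member. With erythroid-like cells left out on both sides, 24 of 33 members were at least 2-fold higher in *CDX2* cells than in cells without *CDX2* in E16 HS, 16 in E19 HS, and 9 among cells of E19 HSTS, compared with 5.28%, 7.38% and 5.98% of all genes. The median ratios over the members were 2.85, 1.90 and 1.64, and over all genes 1.07, 1.02 and 1.03. CDX proteins are known to act on HOX clusters, which is background here and was not tested. The summed ratio was 2.84 (2.77 to 2.90), 2.16 (2.03 to 2.29) and 1.45 (1.37 to 1.53). Members lower by 2-fold were 2 in E16 HS and 0 in each E19 library, compared with 6.82%, 5.64% and 5.86% of genes. With erythroid-like cells kept on both sides, 27, 23 and 22 members were higher, compared with 9.39%, 13.3% and 20.9% of genes, and 2, 0 and 0 were lower, compared with 6.29%, 4.17% and 3.23%.

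*CDX2* cells differed from one library to the next in which members they held. Members 9 to 13 gave 35.6% (34.7 to 36.5) of their HOX UMIs in E16 HS, 52.4% (49.4 to 55.4) in E19 HS and 41.4% (38.7 to 44.2) in E19 HSTS. The UMI-weighted mean paralogue number was 6.59, 7.82 and 7.06. E19 HS was thus the most posterior of the 3. The breed ratio was 0.718 (0.637 to 0.809) for members 9 to 13 and 1.14 (1.01 to 1.29) for members 4 to 8. *CDX2* cells with no caudal gene, which were 116 of 161 in E19 HS and 161 of 176 in E19 HSTS, had a ratio of 0.995 (0.856 to 1.16) for members 9 to 13, and those with a caudal gene had 0.558 (0.426 to 0.722). The lower value was thus seen in the caudal cells, which were also a smaller share of the set in E19 HSTS. *CDX2* cells with at least 1 caudal gene, such as *FGF8*, *WNT3A* or *T*, numbered 517, 45 and 15. No gene was listed under the symbol *TBXT*, and the gene ID ENSOARG00020026117 was taken as *T* here. In these the HOX level was 971, 1257 and 890 CPM, and the mean paralogue number 6.47, 8.34 and 7.44. In E19 HSTS *TBX6*, *WNT3A*, *HES7* and *FGF17* were at 0 in all *CDX2* cells, so its 15 caudal cells were taken by *FGF8*, *CYP26A1* or *T* alone.

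*HOXC12* made up a large part of that difference. In *CDX2* cells it was at 0.697 CPM (9 UMIs) in E16 HS, 103 CPM (145 UMIs) in E19 HS and 7.92 CPM (14 UMIs) in E19 HSTS. E19 HS was the only high library, with a ratio of E19 HSTS to E19 HS of 0.0766 (0.0408 to 0.133). In caudal *CDX2* cells it was seen in 5 of 517 cells in E16 HS, 36 of 45 cells (80.0%, interval 65.4 to 90.4) in E19 HS and 3 of 15 cells (20%, interval 4.33 to 48.1) in E19 HSTS. These 45 cells held 50.8% of all *HOXC12* UMIs of the E19 HS library. By this definition E19 HSTS had both fewer caudal cells and a lower share of them with the gene. The median depth was 7609 UMIs per cell in E19 HS and 8780 in E19 HSTS. *FGF8* in *CDX2* cells was 10.5 times its level in other cells in E19 HS but 1.98 times in E19 HSTS. Whether the 15 and the 45 cells were of the same kind was not tested. The HOXC cluster, with *HOXC12* included, had a ratio of 0.581 (0.496 to 0.679) in *CDX2* cells and 0.367 (0.253 to 0.518) in caudal *CDX2* cells. It had 1.03 (0.839 to 1.28) in *CDX2* cells with no caudal gene, and the ratios of HOXA, HOXB and HOXD in *CDX2* cells lay between 1.08 and 1.09. *HOXC12* gave 145 of the 381 HOXC UMIs in *CDX2* cells of E19 HS and 14 of the 279 in E19 HSTS. The ratio intervals of all other HOXC members in *CDX2* cells included 1, as for *HOXC9* with 0.910 (0.709 to 1.17). In caudal *CDX2* cells 11 members could be compared between the breeds, with 0 higher and 4 lower in E19 HSTS, compared with 3.97% and 9.14% of 2824 genes. The 4 were *HOXC12* (0.107, on 6 and 128 UMIs), *HOXC4* (0.310, interval 0.0595 to 1.03), *HOXA5* (0.379) and *HOXC10* (0.379, interval 0.0716 to 1.30). *HOXC4* and *HOXC10* rested on 3 UMIs each in E19 HSTS and their intervals reached 1.

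*HOXA11* was at 38.5 CPM in *CDX2* cells of E19 HS and 38.5 CPM in those of E19 HSTS, both above 16.1 CPM in E16 HS. This equal level joined unequal subsets, since the breed ratio of *HOXA11* was 2.09 (1.20 to 3.83, on 57 and 17 UMIs) in *CDX2* cells with no caudal gene and 0.677 (0.311 to 1.35, on 11 and 37 UMIs) in caudal ones. *HOXC10* was at 21.8, 22.8 and 18.1 CPM and *HOXD10* at 8.98, 10.7 and 10.2 CPM, close in all 3. *HOXC11* was at 1.39, 9.99 and 4.52 CPM, a ratio of E19 HSTS to E19 HS of 0.453 (0.165 to 1.16) on 8 and 14 UMIs. *HOXB6*, a trunk gene, was the one member that was higher by 2-fold in E19 HSTS, with 20 against 5 UMIs and a ratio of 3.17 (1.16 to 10.8). In all, 24 members could be compared in *CDX2* cells between the breeds, with 1 higher and 2 lower, against 5% and 2.08% of 6539 genes. Between the days, 4 of 30 members were at least 2-fold higher in E16 *CDX2* cells, *HOXB4* (3.23), *HOXD3* (2.89), *HOXC6* (2.88) and *HOXC5* (2.57, interval 0.844 to 12.8, on 3 UMIs in E19 HS), and 3 were lower, *HOXA11* (0.418), *HOXC11* (0.140) and *HOXC12* (0.00674), against 11.4% and 4.95% of 9618 genes. The higher ones were anterior or central members and the lower ones posterior.

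The cells that held *HOXC12* were of different kinds at the 2 days. In E16 HS, 119 of 134 *HOXC12* cells also held *DCN* (88.8%, against 24.3% of the other cells) and 9 held *CDX2*. In E19 HS, 4 of 82 held *DCN*, 42 held *CDX2*, 42 held *FGF8* and 14 held *T*. In E19 HSTS, 8 of 21 held *CDX2*, 5 held *FGF8*, and 0 held *T* or *DCN*. The level of *HOXC12* in *DCN* cells was 4.66 CPM in E16 HS, 1.02 CPM in E19 HS and 0 UMIs in E19 HSTS, with an upper bound of 0.464 CPM. The gene thus went mostly with *DCN* at E16 and more often with *CDX2* than with *DCN* at E19. *SOX2* cells also held many of its UMIs at E19, 109 in E19 HS and 15 in E19 HSTS. *CDX2* cells held 145 and 14, and a cell could be in both sets.

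*DCN* cells held less HOX RNA than other cells in each library when erythroid-like cells were left out, while *HOXA13* was higher in all 3. With erythroid-like cells left out on both sides, 23, 12 and 13 of 33 members were at least 2-fold lower than in cells without *DCN*, against 10.6%, 7.07% and 7.67% of genes, and 3, 1 and 1 were higher, against 6.01%, 5.7% and 5.8%. The summed ratio was 0.526 (0.513 to 0.539), 0.576 (0.548 to 0.605) and 0.562 (0.537 to 0.587). With erythroid-like cells kept, the gap in E19 HSTS was small, 280 CPM in *DCN* cells against 299 CPM over all kept cells. Under the stricter cell filter the direction there turned. *HOXA13* was the gene that was high in all 3 libraries, at 12.1 CPM in E16 HS, 2.42 CPM in E19 HS and 3.39 CPM in E19 HSTS, which over all kept cells was 5.49, 3.49 and 3.38 times the level in cells without *DCN*. *HOXA11* was at 31.7, 9.30 and 8.17 CPM, which was 6.27, 1.72 and 1.40 times. *HOXC12* was the other high member in E16 HS, at 20 times. Of the 1003 *HOXA11* cells in E16 HS, 723 held *DCN*, against 52 of 330 in E19 HS and 38 of 369 in E19 HSTS. *DCN* itself was at 463 CPM in E16 HS and 128 and 92.3 CPM in the E19 libraries, and the E16 set held a larger part of the embryo, 25.1% of cells against 8.96% and 8.32%.

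Members 9 to 13 gave 46.6% (45.5 to 47.7) of HOX UMIs in *DCN* cells of E16 HS, 34.1% (31.9 to 36.4) in E19 HS and 34.5% (32.5 to 36.5) in E19 HSTS. Between the days, 8 of 30 members were at least 2-fold higher in E16 *DCN* cells and 2 were lower, against 9.16% and 9.62% of 11431 genes. *HOXA13* (4.98), *HOXC12* (4.58), *HOXD10* (3.62, interval 0.925 to 31.1, on 2 UMIs in E19 HS) and *HOXA11* (3.40) led the higher ones, and the lower ones were *HOXA2* (0.223) and *HOXC5* (0.448). Between the breeds, 2 of 25 were higher and 1 lower in E19 HSTS *DCN* cells, against 3.13% and 2.08% of 9889 genes. In cells with *TBX4*, a gene of the hindlimb and the allantois, the share of members 9 to 13 was above that of *DCN* cells in each library, with 62.0%, 44.8% and 48.4% in 351, 76 and 120 cells. There *HOXA13* was at 22.9, 19.9 and 22.3 CPM and *HOXA11* at 50.6, 34.2 and 38.3 CPM, and the intervals of the 3 libraries overlapped for each gene. Within *TBX4* cells the difference between the days that *HOXA13* showed over all cells was thus not seen. *HOXB9* was low in E16 *TBX4* cells, 3.79 CPM against 24.2 CPM in E19 HS and 40.1 CPM in E19 HSTS, and *HOXA3* was at 4.55, 21.3 and 8.01 CPM.

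In *SOX2* cells members 9 to 13 gave 30.9%, 34.8% and 34.7% of HOX UMIs and members 1 to 3 gave 16.5%, 16.9% and 13.5%. *HOXB9* was at 63.3 CPM in E16 HS, 71.6 CPM in E19 HS and 105 CPM in E19 HSTS, *HOXC9* at 64.3, 47.1 and 63.4 CPM, and *HOXA7* at 59.7, 64.5 and 81.7 CPM. *HOXA13* was at 0.933, 0.0837 and 0.795 CPM. The genes that lead in the whole embryo thus led here too, and *HOXA13* was under 1 CPM in each library. With erythroid-like cells left out on both sides, 4, 1 and 2 of 33 members were at least 2-fold higher than in cells without *SOX2*, against 5.79%, 4.24% and 4.63% of genes, and 5, 6 and 5 were lower, against 9.13%, 11.9% and 11.4%. Before that step 14, 10 and 19 were higher, against 9.08%, 9.81% and 20.5%, and 5, 4 and 1 were lower, against 7.68%, 9.06% and 7.63%.

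Between the breeds, the summed HOX level in *SOX2* cells had a ratio of E19 HSTS to E19 HS of 1.38 (1.34 to 1.42). This was close to the 1.36 over all cells without erythroid-like ones, so it was not particular to *SOX2* cells. The summed ratio was 1.21 in *MEOX1*, 1.25 in *DCN*, 1.11 in *CDH16* and 0.909 in *CDX2* cells. Of 31 members compared, 7 were at least 2-fold higher and 1 lower in E19 HSTS, against 3.82% and 1.8% of 11579 genes, and the medians were 1.52 over the members and 1.14 over all genes. *HOXD1* had 52 against 19 UMIs, a ratio of 3.46 (2.01 to 6.21), *HOXB8* 418 against 263 UMIs, a ratio of 2.01 (1.72 to 2.36), and *HOXC5* 117 against 68 UMIs, a ratio of 2.18 (1.60 to 2.98). *HOXB1*, *HOXB5* and *HOXD10* also passed, with 29 to 44 UMIs in E19 HSTS. *HOXB1*, which marks a single segment of the hindbrain, was at 1.37, 1.09 and 2.33 CPM. *HOXC12* was the 1 lower member, with 15 against 109 UMIs. Between the days, the ratio of E16 HS to E19 HS was 1.32 (1.28 to 1.36), but 0.870 (0.835 to 0.907) in *SOX2* cells with none of the other 4 markers. At E16 10 of 30 members were at least 2-fold higher and 1 was lower, against 6.5% and 5.11% of 11420 genes. The widest of these were *HOXD8* (3.82), *HOXC10* (3.29) and *HOXC6* (3.28). In E16 HS 370 of the *SOX2* cells also held *CDX2*, with 1033 CPM of HOX, against 77 in E19 HS and 83 in E19 HSTS.

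In *MEOX1* cells the HOX level was 1.34, 1.35 and 1.24 times that of other cells with erythroid-like cells left out, with 4, 2 and 1 of 33 members at least 2-fold higher, against 2.95%, 2.54% and 1.9% of genes, and 6, 1 and 1 lower, against 11%, 9.55% and 11.9%. With erythroid-like cells kept, 8, 13 and 17 were higher, against 5.38%, 5.73% and 10.9%, and 5, 0 and 0 were lower, against 9.48%, 6.79% and 7.31%. Some members numbered 10 and above were low in E16 *MEOX1* cells, although members 9 to 13 together were at 159.6 CPM, against 144 CPM in E19 HS and 172 CPM in E19 HSTS. *HOXA11* was at 0.821 CPM (6 UMIs) in E16 HS, 8.55 CPM in E19 HS and 7.23 CPM in E19 HSTS. *HOXC10* was at 0.958, 3.63 and 6.81 CPM and *HOXD10* at 0.274, 2.99 and 4.03 CPM. E16 HS was the low library for each of the 3, whereas over all kept cells it was the high one. The ratio of E16 HS to E19 HS was 0.0961 (0.0333 to 0.228) for *HOXA11* and 0.264 (0.0924 to 0.669) for *HOXC10*. The trunk gene *HOXB9* was at 87.8, 61.4 and 76.8 CPM and *HOXA7* at 83.8, 86.8 and 86.8 CPM, high in all 3 libraries. Of 26 members compared between the days, 1 was at least 2-fold higher and 3 were lower at E16, against 5.98% and 4.86% of 8932 genes. Between the breeds 2 of 27 were higher and 0 lower in E19 HSTS, against 3.78% and 1.74% of 9065 genes: *HOXC5*, at 5.77 CPM in E19 HS and 16.4 CPM in E19 HSTS with a ratio of 2.84 (1.86 to 4.49), and *HOXB6*, with 13 and 44 UMIs and a ratio of 2.20 (1.16 to 4.45).

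*CDH16* cells had the lowest mean paralogue number of the 5 sets, 5.71 in E16 HS (on 62 HOX UMIs), 5.97 in E19 HS and 6.12 in E19 HSTS. Members 4 to 8 gave 58.1%, 67.3% and 64.6% of their HOX UMIs. Members 1 to 3 gave 24.2%, 15.8% and 15.8%, and in E19 HS this was below the 16.9% of *SOX2* cells. Members 9 to 13 gave 17.7%, 16.9% and 19.6% of HOX UMIs. The HOXC cluster gave a small share in the E19 sets, 5.66% and 5.45% of HOX UMIs, against 17.9% and 17.7% over all kept cells. Not every HOXC member was low. *HOXC4* was at 5.55 CPM in E19 HS and 7.89 CPM in E19 HSTS, 0.744 and 0.983 times its level in cells without *CDH16*. *HOXC5* was at 3.70 and 5.26 CPM, 1.24 and 1.11 times. *HOXC9* was at 8.79 CPM in E19 HS and 5.92 CPM in E19 HSTS, *HOXC6* at 0.926 and 2.63 CPM, and *HOXC10* had 0 UMIs in both, with upper bounds of 1.71 and 1.21 CPM. Among the higher members were *HOXA7* (69.9 and 72 CPM), *HOXA5* (59.7 and 46.4 CPM), *HOXB9* (32.4 and 39.5 CPM) and *HOXA3* (34.7 and 36.8 CPM). *HOXA3*, a gene of the pharyngeal glands and the neck, was 2.33 and 2.92 times its level in cells without *CDH16*.

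The HOXD cluster differed between the 2 E19 libraries in *CDH16* cells. It was at 32.9 CPM in E19 HS and 70.0 CPM in E19 HSTS, a ratio of 2.13 (1.62 to 2.83). The HOXD ratio was 1.51 over all cells without erythroid-like ones. It was 1.45 in *SOX2*, 1.05 in *MEOX1*, 1.08 in *CDX2* and 1.27 in *DCN* cells. *HOXD8* was at 7.87 and 19.7 CPM (17 and 60 UMIs), a ratio of 2.51 (1.44 to 4.58). *HOXD9* was at 10.6 and 23.0 CPM (23 and 70 UMIs), a ratio of 2.16 (1.33 to 3.63). Both were higher in E19 HSTS, as was *HOXD3* with a ratio of 2.06 (0.976 to 4.74). *HOXA9* was at 3.24 and 8.88 CPM (7 and 27 UMIs), a ratio of 2.74 (1.16 to 7.45). These were the 4 of 19 members compared that were at least 2-fold higher, with 0 lower, against 4.42% and 2.16% of 7495 genes. The other 3 clusters had ratios of 0.923 (HOXA), 1.23 (HOXB) and 1.07 (HOXC).

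**Figure D4:**
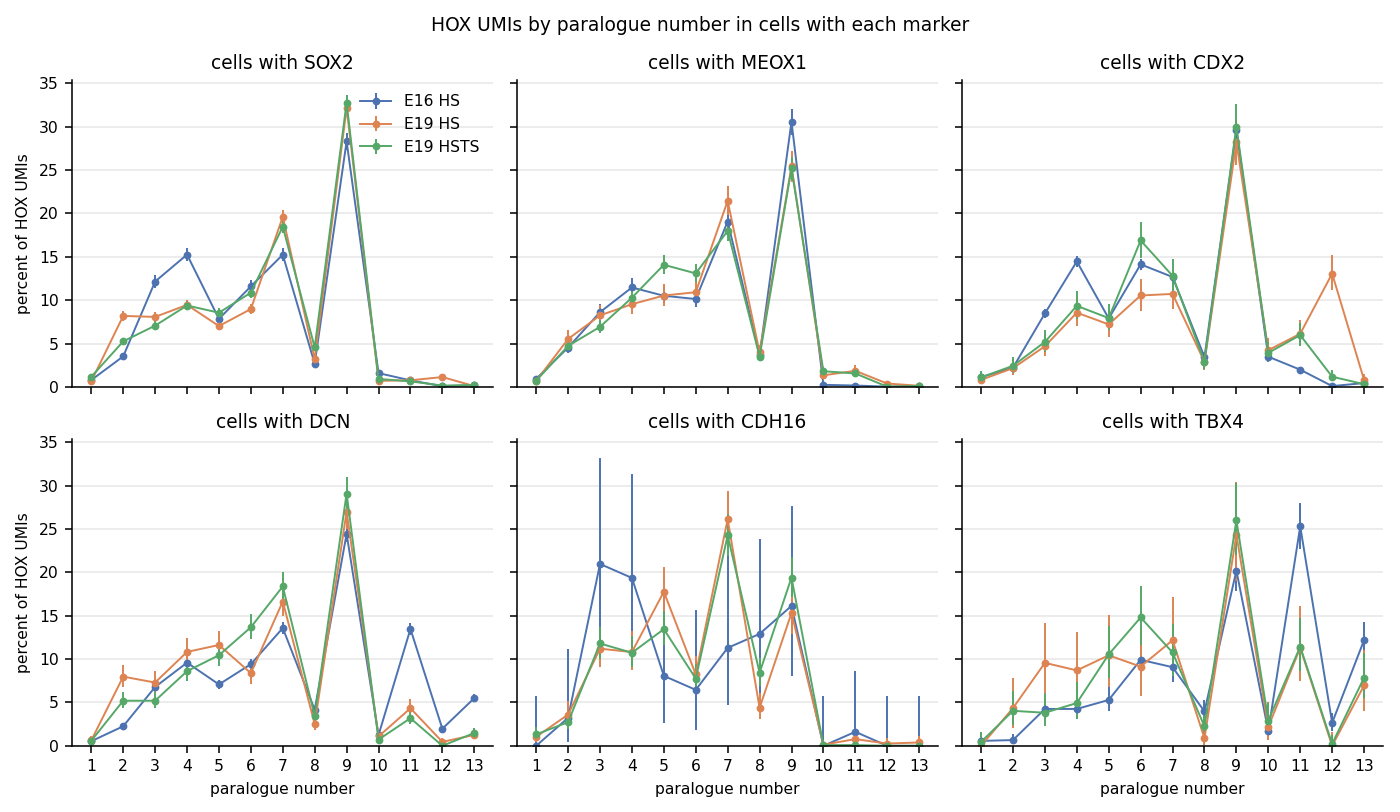
Share of HOX UMIs (percent) from each paralogue number in cells with each marker, 1 line per library with exact 95% counting intervals. Number 9 is the highest in *SOX2*, *MEOX1*, *CDX2* and *DCN* cells of each library, number 12 is at 13.1% in *CDX2* cells of E19 HS, and numbers 11 and 13 are highest in *TBX4* cells of E16 HS, at 25.3% and 12.2%.

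Single cells held few HOX molecules. With every cell thinned to 3000 UMIs and the 1106 to 1345 shallower cells per library left out, at least 1 member was seen in 45.4% (44.4 to 46.3) of cells in E16 HS, 46.2% (45.2 to 47.2) in E19 HS and 46.6% (45.5 to 47.6) in E19 HSTS. Unthinned the shares were 61.7%, 56.6% and 57.1%. In erythroid-like cells the thinned share was 5.49%, 3.20% and 4.71%. This was taken as a guide to the level of free RNA, on the assumption that these cells make no HOX RNA. That assumption was not tested, and doublets had not been removed. *CDX2* cells stood highest with 87.3%, 79.1% and 81.9%, followed by *MEOX1* cells with 66.5%, 70.0% and 74.4%. *DCN* cells were at 40.4%, 37.9% and 46.5%. A cell of any kind held up to 20 different members unthinned in E16 HS, 15 in E19 HS and 16 in E19 HSTS.

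The most posterior member seen in a cell is another summary of the same UMIs, taken per cell, and not separate evidence. Among thinned cells with a member, the top paralogue number was 10 or above in 13.4% of cells in E16 HS, 6.80% in E19 HS and 8.47% in E19 HSTS. In caudal *CDX2* cells the share was 17.5% (14.2 to 21.3) of 473 cells, 81.6% (65.7 to 92.3) of 38 cells and 26.7% (7.79 to 55.1) of 15 cells. E19 HS was the high library, and *HOXC12*, seen in most of its caudal *CDX2* cells before thinning, counts in this share. In *MEOX1* cells it was 1.14%, 5.08% and 7.07%, low at E16, and in *DCN* cells 28.6%, 9.04% and 9.94%, high at E16. *CDH16* cells of E19 HSTS had 0 of 120 such cells, with an exact upper bound of 3.03%.

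**Figure D5:**
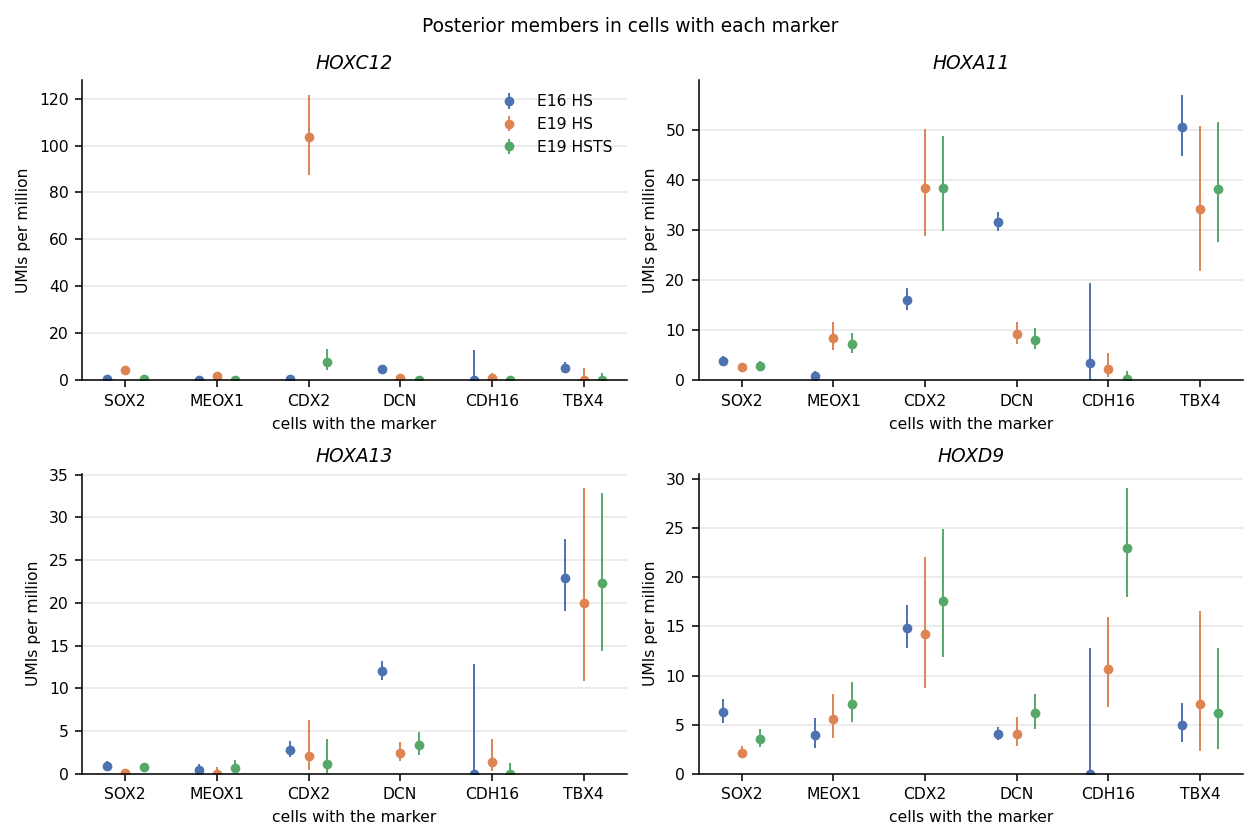
Level in CPM of *HOXC12*, *HOXA11*, *HOXA13* and *HOXD9* in cells with each marker, with 1 point per library and exact 95% counting intervals. *HOXC12* reaches 103 CPM in *CDX2* cells of E19 HS alone, *HOXA11* and *HOXA13* are high in *DCN* cells of E16 HS and in *TBX4* cells of all 3 libraries, and *HOXD9* is highest in *CDH16* cells of E19 HSTS.

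HOX proteins bind DNA together with PBX and MEIS or PKNOX proteins, and 7 of 9 such cofactor genes were listed. None of the 7 differed by 2-fold in either comparison. *MEIS2* was the highest at 62.9 CPM in E16 HS, 45.0 CPM in E19 HS and 43.3 CPM in E19 HSTS, and *MEIS1* was at 33.3, 26.5 and 28.5 CPM. Of 18 genes that regulate HOX clusters, lie beside them or belong to the related ParaHox group, 11 had enough UMIs, and 0 were higher and 2 lower by 2-fold in E19 HSTS, beside 2.4% and 3.3% of all genes. Those were *CYP26A1* and *CYP26C1*, which break down retinoic acid, an inducer of anterior HOX genes. *CYP26A1* was at 2.72 CPM in E16 HS, 0.800 CPM in E19 HS and 0.382 CPM in E19 HSTS, a ratio of 0.477 (0.313 to 0.717) between the breeds, and of 0.580 (0.376 to 0.882) without erythroid-like cells, where it no longer passed. *CYP26C1* was lower in both settings, with ratios of 0.274 and 0.350. Between the days 5 were higher and 1 lower at E16, beside 8.06% and 7.89% of all genes, and 4 and 1 without erythroid-like cells, beside 6.33% and 9.38%. *CDX2* was at 20.7, 2.63 and 2.39 CPM and its relative *CDX4* at 7.26, 0.947 and 0.542 CPM, both highest at E16.

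The genes most like the summed members 9 to 13 over the 15 combinations of 5 marker sets and 3 libraries, by Pearson correlation of log2(CPM + 1) and among genes with at least 200 UMIs, were *SUMO3* (r = 0.938), *SRPK1* (0.935), *AZIN1* (0.929), *DNAJC8* (0.922) and *SPOCK2* (0.915). The 15 points share libraries and partly cells, so these values are a description. *SRPK1* ran from 115 CPM in *CDH16* cells of E16 HS to 209 CPM in *CDX2* cells of E19 HSTS, a narrow range, and *SPOCK2* from 0 to 4.28 CPM.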

How the data were processed

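The 3 libraries were 10x 3′ single-cell libraries of whole sheep embryos. Per the labels, the authors processed reads with Cell Ranger 6.1.2 and worked in R 4.1.2 with Seurat 4.1.1. The study's methods name the sheep genome Ovis_aries_genome_v1.0. The authors deposited raw UMI counts per gene and cell, 11114 to 12645 cells and 94754580 to 128271878 UMIs per library, and these counts were used as deposited, without the imputation the study describes. Members and marker lists were chosen with earlier results of these data known. The cell filter is the wider of the limits in the study's methods, and the UMIs of the kept cells set the counting precision.

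Counts were summed per gene and cell set and divided by all UMIs of the set (CPM, per 1000000). Ratios carry exact conditional Clopper-Pearson intervals, at a confidence level of 95%, and shares exact binomial ones. A gene was counted as higher or lower at a ratio of at least 2 or at most 0.5 with at least 20 UMIs in both sums together, and a sum of 0 was set to 3 counts for a bound. The named genes were all members, the 5 markers, the cofactor and regulator lists, and the 5 genes most like members 9 to 13. Each cell was thinned to 3000 UMIs for shares of cells. The scripts were tested on simulated data. Python 3.11.15, numpy 2.4.6, scipy 1.17.1, pandas 2.3.3, scanpy 1.11.5 (Scrublet), R 4.3.3 and edgeR 4.0.16 (TMM and RLE factors only) were used. No doublets were removed in the main values: Scrublet marked 202 cells (1.78%) in E16 HS and 1 and 2 cells at E19, where it did not work, so the 8% of cells with the highest scores were left out as an alternative. Other alternatives were a stricter cell filter (500 genes, 5% mitochondrial UMIs), all deposited cells, other UMI minimums, at least 2 UMIs of a marker, cells with only 1 of the 5 markers, and, chosen after seeing the data, leaving out erythroid-like cells in the cell sets and adding *Hoxc8* and *hoxd11*. Gene sequences and coordinates were not used here. Some genes of the lists count in the totals but their own values are not reported or plotted here.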

Additional observations from a re-analysis of the deposited data

Results flagged for a closer look

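For 3 members the ratio of E16 HS to E19 HS ran in opposite directions in different cell sets, each by at least 2-fold. The difference between the sets was not tested, since each group was 1 library. *HOXA11* had ratios of 0.0961 in *MEOX1* cells (6 against 40 UMIs) and 0.418 in *CDX2* cells (208 against 54 UMIs), and 3.40 in *DCN* cells (1134 against 73 UMIs). *HOXC10* had 0.264 in *MEOX1* cells (7 against 17 UMIs) and 3.29 in *SOX2* cells (102 against 46 UMIs). *HOXC12* had 0.0954 in *SOX2* cells (7 against 109 UMIs) and 0.00674 in *CDX2* cells (9 against 145 UMIs), and 4.58 in *DCN* cells (167 against 8 UMIs). A cell could be in more than 1 set.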

How the results depend on the processing

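No paired analysis was possible because each group was 1 library, and for the same reason no replicate could be left out. Of 150 values of the main comparisons under the alternatives, 110 stayed within the counting interval or within 1.5 times a count, 32 moved and 8 turned direction. For the summed ratio of E19 HSTS to E19 HS, 1.05, the stricter filter gave 1.02, leaving out high Scrublet scores 1.03, TMM 1.10, RLE 1.09 and leaving out erythroid-like cells 1.36, with 4 members higher in place of 0, and with no minimum of UMIs 2 were lower in place of 1. For E16 HS to E19 HS, 1.10, all deposited cells gave 1.13, leaving out erythroid-like cells 1.04 with 1 member lower, TMM 0.949 with 4 higher and 2 lower, and RLE 0.967 with 1 lower. The median ratio of all genes was 1.16 unscaled, 1.00 under TMM and 1.02 under RLE. With *Hoxc8* and *hoxd11* the share of members 9 to 13 was 34.8%, 32.5% and 33.0%.

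In *SOX2* cells the breed ratio was 1.34 over all deposited cells and 1.43 without erythroid-like cells, and the day ratio was 1.36 with at least 2 marker UMIs and 0.870 in cells with only 1 marker. In *CDX2* cells the breed ratio was 0.826 without high Scrublet scores and 0.683 with at least 2 marker UMIs, and the day ratio 1.04 and 0.970. In *DCN* cells the day ratio was 1.16 over all deposited cells, 0.978 without high Scrublet scores, 0.905 with at least 2 marker UMIs and 0.855 in cells with only 1 marker, and the ratio to other cells in E19 HSTS was 1.02 under the stricter filter. In *CDH16* cells the breed ratio was 0.974 under the stricter filter and 1.24 without erythroid-like cells, and the ratio to other cells was then 0.924 in E19 HS and 0.839 in E19 HSTS. The share of cells with a member was 44.2% in E16 HS and 44.8% in E19 HSTS under the stricter filter, 61.7%, 56.6% and 57.1% unthinned, and 29.3%, 26.5% and 32.0% for at least 2 UMIs. The cause of these shifts was not tested. Of 462 values for single members, 397 stayed, 65 moved and 0 of those past 2-fold turned direction. Members under 20 UMIs and the 18 *CDH16* cells of E16 HS are limited by depth.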

Other observations

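*Hoxc8*, a gene of the thoracic trunk, and *hoxd11*, the partner of *HOXA11* in the middle limb segment, were listed in another letter case and were not members. *Hoxc8* was at 13.6 CPM in E16 HS, 9.44 CPM in E19 HS and 10.4 CPM in E19 HSTS, which places it among the higher members. *hoxd11* was at 1.53, 1.44 and 1.62 CPM. In *CDX2* cells *hoxd11* was at 6.66, 19.3 and 8.48 CPM, with 27 UMIs in E19 HS and 15 in E19 HSTS and a breed ratio of 0.440 (0.218 to 0.858), so it was highest in E19 HS, as *HOXC11* and *HOXC12* were.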
